A study of Homo sapiens with 8 samples.

Results

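The genes described here are the 5 subunits of the transcription factor NF-κB and 5 proteins of the IκB family that bind them, 10 genes of 19475 entries in the expression table. They were taken by symbol: RELA, RELB, REL, NFKB1 and NFKB2 for the subunits, and NFKBIA, NFKBIB, NFKBIE, NFKBIZ and BCL3 for the IκB family. In 22001 regions that carried an m6A peak in at least 1 list, 13 belonged to these genes. HCT116, a human colorectal carcinoma line with no engineered allele named in the labels, was treated with Fusobacterium nucleatum (F. nucleatum), an anaerobic bacterium of the mouth and gut, or with PBS as Control, for 2 h in the description of the methods. Poly(A) RNA was fragmented, a share was pulled down with an antibody against N6-methyladenosine (m6A, adenosine that carries a methyl group), and the pulled-down (IP) and unselected (input) fragments were sequenced, with 2 libraries of each kind in each group. The libraries came from 1 cell line. The p-values of mRNA rest on the spread between the 2 libraries of a group, described as biological replicates, moderated over all genes tested. They do not measure spread between donors. A peak p-value compares the IP with the input of 1 replicate and measures no spread between libraries.

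NF-κB is a dimer of Rel proteins that waits in the cytoplasm, held there by an inhibitor of the IκB class. When a bacterial product or a cytokine reaches its receptor, the IκB kinase (IKK) phosphorylates the inhibitor, a ubiquitin ligase marks it, the proteasome destroys it, and the dimer enters the nucleus and binds kappa-B sites. In intestinal epithelium this pathway is known for the release of chemokines that call in neutrophils. The gene of the inhibitor IκBα, NFKBIA, is itself a textbook target of NF-κB, so its mRNA is made again after the protein is lost. m6A on mRNA lies mostly near stop codons, in the sequence context GGAC and its relatives.

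In cells treated with F. nucleatum, the mRNA of NFKBIA was 4.32-fold and that of NFKBIZ 5.45-fold that of Control. These were the 2 genes called higher among the 9 that could be tested, against 0.667% of 11088 genes. No gene of the group was called lower, against 0.135% of all genes tested. NFKBIZ could be tested only because its treated libraries were high, and its call needed both of them. The mRNA of the other inhibitors and of the subunits lay between 1.01-fold and 1.61-fold of Control and passed no adjusted threshold. The m6A peak at the NFKBIA stop codon was present in all 4 peak lists, as 51.5% of all regions were. A second NFKBIA peak near the start codon was present in both Control lists and in no F. nucleatum list, as 2.64% of all regions were.

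The mRNA levels are FPKM (fragments scaled by transcript length and by the mapped total) and can be set side by side between genes. The absolute depth was unknown. Relative to the input of Control 1, that of Control 2 had a depth of 1.11, and the F. nucleatum inputs had depths of 1.24 and 0.913, with replicate 1 the deeper; 14566 to 14816 genes had a value over 0. All 6 epithelial markers were at or above 1 FPKM (KRT8, CDH1 and others), 0 of 5 leukocyte markers and 0 of 3 endothelial markers were, and of 4 fibroblast markers COL1A1 alone was. The summed leukocyte markers were at 0.0695 to 0.222 FPKM in Control and 0.138 to 0.163 in F. nucleatum, with CD3E at 0 in every library. In bulk RNA, more RNA per cell and more cells that express a gene cannot be told apart.

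**Figure D1:**
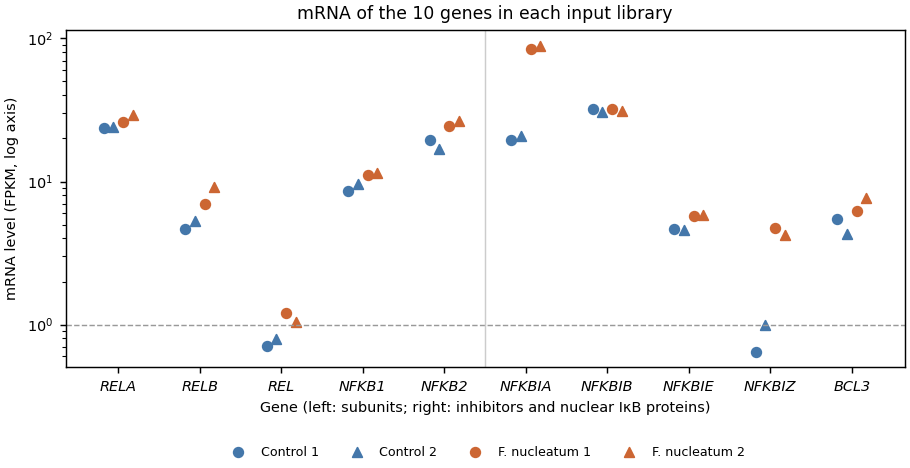
mRNA level of each gene (FPKM, log axis) in the 4 input libraries, with 1 symbol per library (blue for Control, orange for F. nucleatum, circles for replicate 1 and triangles for replicate 2); the dashed line marks 1 FPKM. NFKBIA moves from 19.6 and 20.7 to 84.8 and 89.1, NFKBIZ crosses 1 FPKM, and the NFKBIB symbols lie on one level.

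RELA encodes the subunit with the strongest transactivation domain and was the most abundant subunit mRNA. Its level was 23.6 and 24.1 FPKM in the Control libraries, and the treated libraries had 26.1 and 29.2 FPKM. Both treated libraries were above both controls, but the log2 fold change of 0.20 (95% confidence interval 0.01 to 0.39, on the log2(FPKM + 1) scale) did not pass (limma adjusted p 0.348). RELB encodes the subunit of the noncanonical branch, which pairs with the NFKB2 product. It was at 4.64 and 5.3 FPKM with PBS and at 6.96 and 9.08 FPKM with the bacterium. The groups did not overlap, and the F. nucleatum libraries lay farther from each other than the Control libraries did. RELB had the largest log2 fold change among the 4 subunits tested, 0.59 (0.25 to 0.92, limma adjusted p 0.208).

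REL encodes c-Rel, a subunit best known from lymphocytes. It was at 0.707 and 0.795 FPKM with PBS and at 1.21 and 1.04 FPKM with the bacterium. Its mean over the 4 libraries was below the minimum of 1 FPKM, so it was not tested in the main analysis. With the minimum lowered to 0.3 FPKM, its log2 fold change was 0.28 (0.04 to 0.51, limma adjusted p 0.33).

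NFKB1 and NFKB2 encode precursor proteins that are trimmed to DNA-binding subunits and that, before trimming, hold other subunits back by their own ankyrin repeats. NFKB1 was at 8.63 and 9.61 FPKM with PBS and at 11.1 and 11.4 FPKM with the bacterium, a log2 fold change of 0.28 (0.08 to 0.48, limma adjusted p 0.278). NFKB2 was at 19.6 and 16.9 FPKM with PBS and at 24.4 and 26.3 FPKM with the bacterium. For both genes the treated libraries were above the controls. The log2 fold change of NFKB2 was 0.45 (0.23 to 0.68, limma adjusted p 0.165), and without Control 1 it was 0.55 and passed (limma adjusted p 0.0391).

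NFKBIA (chromosome 14, 35870285 to 35873955, GRCh37) encodes IκBα, the inhibitor that IKK removes first in the canonical branch. It was at 19.6 and 20.7 FPKM with PBS and at 84.8 and 89.1 FPKM with the bacterium. The F. nucleatum libraries lay far above the Control libraries, and the spread within each group was small beside that gap, with means of 20.1 ± 0.797 and 86.9 ± 3.09 FPKM (SD, n = 2). The log2 fold change was 2.06 (SE 0.06, 1.90 to 2.22, limma adjusted p 0.000524), and the call held without each library in turn.

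NFKBIB encodes IκBβ, an inhibitor that is degraded more slowly. It was at 32.0 and 30.7 FPKM with PBS and at 32.0 and 31.2 FPKM with the bacterium, so the groups overlapped. Its log2 fold change was 0.01 with an interval of -0.14 to 0.16, and centring the libraries on their medians gave -0.00068, so it had no stable direction. NFKBIE encodes IκBε, the third inhibitor of this class. It was at 4.68 and 4.55 FPKM with PBS and at 5.77 and 5.87 FPKM with the bacterium. The groups were apart by more than their spread, and the log2 fold change of 0.28 (0.09 to 0.47) did not pass (limma adjusted p 0.261).

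NFKBIZ (chromosome 3, 101546835 to 101579866) and BCL3 encode IκB proteins of the nucleus, which bind subunits on DNA and can raise transcription of chosen targets. NFKBIZ was at 0.647 and 0.996 FPKM with PBS and at 4.71 and 4.24 FPKM with the bacterium. It reached the minimum of 1 FPKM only through the treated libraries. The means were 0.821 ± 0.247 and 4.47 ± 0.332 FPKM (SD, n = 2) and the log2 fold change was 1.59 (SE 0.13, 1.28 to 1.91, limma adjusted p 0.00994). Without F. nucleatum 1 the adjusted p was 0.116 and without F. nucleatum 2 it was 0.104, so the call needed both treated libraries. BCL3 was at 5.43 and 4.27 FPKM with PBS and at 6.2 and 7.65 FPKM with the bacterium, with a log2 fold change of 0.44 (0.09 to 0.79, limma adjusted p 0.299).

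**Figure D2:**
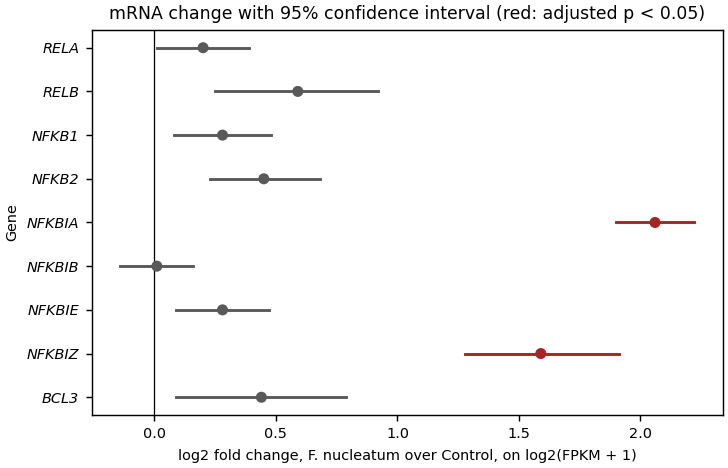
log2 fold change of mRNA, F. nucleatum over Control, on the log2(FPKM + 1) scale for the 9 genes tested (points), with 95% confidence intervals (lines); red marks an adjusted p under 0.05. NFKBIA at 2.06 and NFKBIZ at 1.59 stand to the right of the other 7 genes, which lie between 0.01 and 0.59, and the interval of NFKBIB spans 0.

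The 2 calls among the 9 genes tested stand beside 0.667% of 11088 genes called higher and 0.135% called lower. In 8 of the 9 both F. nucleatum libraries were above both Control libraries, and so were those of REL, against 26.1% of all genes tested. An unadjusted p under 0.05 was reached by 8 of the 9 genes and by 13.5% of all genes. The median log2 fold change was 0.44 for these genes and 0.01 for all genes tested. NFKBIZ entered these counts only because its treated libraries were high, and the genes had been chosen with results of the same libraries known, so the counts are a description.

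NFKBIA moved up in the order of the levels, and NFKBIZ stayed next to last. In Control the order was NFKBIB (31.4), RELA (23.9), NFKBIA (20.1), NFKB2 (18.3), NFKB1 (9.12), RELB (4.97), BCL3 (4.85), NFKBIE (4.62), NFKBIZ (0.821) and REL (0.751 FPKM, authors' values averaged over 2 libraries). RELB, BCL3 and NFKBIE did not differ beyond their spread there, nor did NFKBIZ and REL. In F. nucleatum NFKBIA stood first with 86.9 FPKM, ahead of NFKBIB with 31.6. RELA (27.7) and NFKB2 (25.4) overlapped in the treated libraries, as did RELB (8.02) and BCL3 (6.92).

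The makeup of the cytoplasmic inhibitor mRNA differed between the groups. Of the summed FPKM of NFKBIA, NFKBIB and NFKBIE, NFKBIA held 34.8% and 37.0% in the Control libraries and 69.2% and 70.6% in the treated libraries. NFKBIB held 56.9% and 54.9% in the Control libraries and 26.1% and 24.7% in the treated libraries, while its own level stayed between 30.7 and 32.0 FPKM. The sum of the 3 inhibitors was 56.1 ± 0.174 FPKM in Control and 124.4 ± 2.66 FPKM in F. nucleatum (SD, n = 2). Set against the sum of the 5 subunits, this was 0.982 and 0.986 inhibitor FPKM per subunit FPKM in Control and 1.75 and 1.64 in F. nucleatum. NFKBIA per RELA went from 0.828 and 0.858 to 3.24 and 3.05. The subunit mix moved less, with RELA at 41.3% and 42.5% of the subunit sum in the Control libraries and at 37.4% and 38.0% in the treated libraries. With 2 libraries in each group, an exact permutation test of such a ratio cannot give a p below 0.333.

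The promoters of these genes were read for kappa-B sites, the sequence NF-κB dimers bind, since several genes of the group are known targets of NF-κB. RefSeq promoters (GRCh38.p14, 250 bases before to 50 after a start site) were at hand for 8 of the 10 genes, RELB and NFKBIE being the exceptions, in 14 windows. The kappa-B consensus was found on either strand in 9 of the 14 windows, belonging to 7 genes, and in 11.3% of 35116 promoters of the same length. Overlapping matches were counted as 1 site. Neither RELA window held a match. For both called genes and 3 others, 1 site each is shown, picked after the matches were seen. Not shown are a NFKBIZ site at -239 and NFKB2 sites at -107 and -78, each counted from another start site than the printed site of the gene. Also not shown are a NFKB2 site at -176 and a NFKBIB site at 39, in the windows of the printed sites, and the sites of REL and BCL3. The printed sites have the match in capitals, each 5′ to 3′ on the strand of its gene; the position is that of the first base of the match from the start site.
NFKBIA, -81 (chr14:35404812-35404839, minus strand): gactggcttGGAAATTCCCcgagcctga
NFKBIZ, -223 (chr3:101827758-101827785, plus strand): ttttggtctGGGAATTTCCagtgtgcag
NFKB1, -49 (chr4:102501301-102501328, plus strand): gacgtcagtGGGAATTTCCagccaggaa
NFKB2, -21 (chr10:102395675-102395702, plus strand): ggtattttcGGGACTTTCCtaagctgct
NFKBIB, -28 (chr19:38899932-38899960, plus strand): ggcgtggtgGGGAATTTCCCgcagggcgg
NFKBIB, whose mRNA levels overlapped between the groups, held a match as NFKBIA and NFKBIZ did. The matches are letters in these windows, and no binding was measured.

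The upstream 250 bases of NFKBIA (GRCh38.p14, chr14:35404750-35404999, minus strand) are given as the promoter of the gene with the largest change in FPKM of the group, with the same site in capitals.
NFKBIA promoter: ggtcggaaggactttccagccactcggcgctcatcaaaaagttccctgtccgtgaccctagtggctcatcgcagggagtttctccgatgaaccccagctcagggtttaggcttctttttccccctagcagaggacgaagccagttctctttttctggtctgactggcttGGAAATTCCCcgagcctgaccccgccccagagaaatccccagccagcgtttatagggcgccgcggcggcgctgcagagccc

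The m6A peaks asked whether the mark on these transcripts differed with the treatment. The authors called peaks in each replicate, IP against its input, so a list is 1 sample, and the depth of the IP libraries was unknown. The 10 genes carried 10 peaks in each Control list, while replicates 1 and 2 of F. nucleatum gave 11 and 9, with a mean of 10.0 in both groups (two-sided exact permutation p 1.0). With 2 lists in each group this test cannot give a p below 0.333, so it cannot decide whether the counts differ. The whole lists held 17039 to 18365 peaks. Peaks that shared at least 1 exon base on a strand were joined into regions, placed on GRCh37. Of the 13 regions of these genes, 7 had a peak in all 4 lists, close to the share of 51.5% among all 22001 regions. One region had a peak in both Control lists and in no F. nucleatum list (2.64% of all regions), and 0 had the reverse (2.38%). A region without a peak in a list may still carry m6A below the threshold of the caller.

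Of the 13 regions, 6 covered a stop codon, namely those of RELA (region 2), RELB, NFKB1, NFKBIA (region 2), NFKBIB (region 2) and BCL3, against 27.8% of all regions. Among regions with a peak in all 4 lists it was 5 of 7 here and 45.8% in the series. The GGAC motif was in 72.8% of all regions. For each region seen in all 4 lists, the GGAC nearest the stop codon within the part shared by all lists is printed with 13 bases on either side, except that the shared part of RELB is 1 base long and holds none. Positions are in nucleotides of the spliced transcript from the last base of the stop codon to the A of GGAC, and coordinates are GRCh37.
RELA region 2, -34 (coding, chr11:65421869-65421898, minus strand): ccattgcggacatGGACttctcagccctgc
RELA region 3, 731 (3′UTR, chr11:65421104-65421133, minus strand): aatcaaagcacttGGACtcttgctctttct
NFKB1, -21 (coding, chr4:103537715-103537744, plus strand): ttatgggcaggaaGGACctctagaaggcaa
NFKBIA region 2, 26 (3′UTR, chr14:35871179-35871208, minus strand): gctgaaagaacatGGACttgtatatttgta
NFKBIE, 109 (3′UTR, chr6:44226833-44226862, minus strand): tctggtgccctagGGACtgctgtggccaga
BCL3, 200 (3′UTR, chr19:45263057-45263086, plus strand): tcgctccctcccaGGACtctgaccccagca
The A of GGAC is where the mark could sit, and the peaks do not resolve single bases.

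**Figure D3:**
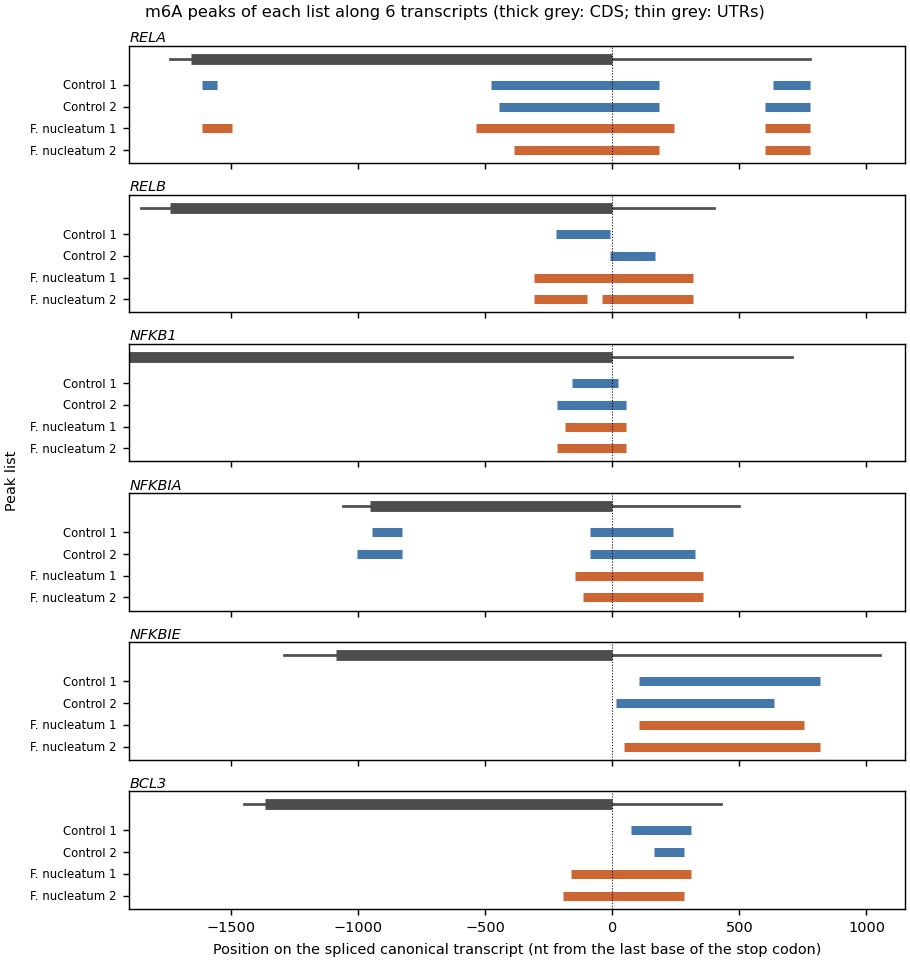
m6A peaks of the 4 lists (coloured bars, blue for Control and orange for F. nucleatum) on the spliced canonical transcripts of 6 genes, in nt from the last base of the stop codon (dotted line); the thick grey bar is the coding sequence and the thin one the UTRs, and the transcript of NFKB1 runs on to the left. The NFKBIA peaks near the start codon appear in the Control rows alone, the NFKBIA peak at the stop codon is longer in the F. nucleatum rows, and the BCL3 peaks, which lie past the stop codon in the Control rows, reach across it in the F. nucleatum rows. REL, NFKBIB, NFKB2 and NFKBIZ are not drawn.

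RELA carried 3 regions. Region 2 (chr11:65421606-65422385, exon 11 of 11) ran over 780 nt from the coding sequence into the 3′UTR and had peaks at p 5e-35 and 1e-37 in Control against 1.6e-54 and 2e-34 in F. nucleatum. Region 3 (chr11:65421067-65421247), at the far end of the 3′UTR, had peaks at p 4.2e-07 and 4e-14 in Control against 1.6e-14 and 5e-11 in F. nucleatum. Both lay in all 4 lists, and in neither were the F. nucleatum values on one side of the Control values. Region 1 (chr11:65429433-65429553, exon 3, coding) was a weak peak in Control 1 (p 0.001) and F. nucleatum 1 (p 0.0038) and held no GGAC.

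RELB had a region over its stop codon (chr19:45540738-45541366, exon 12 of 12, 629 nt), formed from peaks that differed in shape between lists. The Control 1 peak (p 0.001) lay in the coding sequence and the Control 2 peak (p 2.3e-06) over the stop codon and 3′UTR, and they shared 1 base. F. nucleatum 1 had 1 peak over the whole region (p 1e-16) and F. nucleatum 2 had 2 peaks (p 2.3e-06 and 3.3e-09). When peaks had to share 50% of their bases to be joined, the 10 genes had 15 regions, of which 6 lay in all 4 lists. In the series 9648 of 31041 regions then did.

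NFKB1 had a region of 269 nt over its last 2 exons (chr4:103534683-103537803, exons 23 and 24 of 24), at p 0.00014 and 6e-05 in Control and 5.6e-08 in each F. nucleatum list. REL had a peak in its coding sequence (chr2:61149114-61149444, p 1.9e-05) and one in its 3′UTR (chr2:61155081-61155291, p 1.3e-05), both in F. nucleatum 1 alone, the input library of greatest relative depth. An overlapping gene on the same strand shares 5702 bases of exon with REL, so the REL signal could not be assigned with certainty. The part of depth and of that gene in the REL peaks was not tested. NFKB2 had no peak in any list, whereas 87.5% of 3440 genes within 2-fold of its FPKM had one in at least 1 list.

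NFKBIA carried the one region of the group found in both Control lists and in no other. Region 1 (chr14:35873724-35873901, exon 1 of 6, 178 nt, GC content 73.0%) covered 51 nt of the 5′UTR and 127 nt of the coding sequence. The Control 2 peak spanned the whole region and the start codon, and the Control 1 peak, 119 nt long, lay within the coding sequence. Its p was 0.0023 in Control 1, where 92.9% of the peaks of that list had a lower p, and 2.3e-05 in Control 2, where 67.4% did. The peak was thus among the weaker ones of its lists, and no Control peak of this region passed a stricter limit of 1e-05. The coding part is printed because it holds the codons of the serines that IKK phosphorylates, serine 32 and serine 36, and the only GGAC motifs of the region, in capitals (chr14:35873724-35873850, GRCh37, minus strand, from the start codon).
NFKBIA region 1, coding part: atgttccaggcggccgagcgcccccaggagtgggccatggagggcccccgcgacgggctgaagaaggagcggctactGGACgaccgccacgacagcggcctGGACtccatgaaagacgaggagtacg
The mRNA of NFKBIA was 4.32-fold higher in the inputs of the lists without this peak, and coverage over the region itself was not given. The part of input level, GC content and IP depth in the absence of the peak was not tested.

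NFKBIA region 2 (chr14:35870864-35871699, exons 5 and 6 of 6, 503 nt, 4 GGAC motifs) covered the stop codon and much of the 3′UTR in all 4 lists. Its p-values were 2e-14 and 4e-17 in the Control lists and 2.5e-45 and 5e-50 in the treated lists. Both F. nucleatum values were lower than both Control values. Within the lists, 37.2% and 34.8% of Control peaks and 15.6% and 12.3% of F. nucleatum peaks had a lower p. The peak was 326 and 415 nt long in Control and 503 and 473 nt long in F. nucleatum. A peak p depends on the number of fragments as well as on enrichment, and the mRNA differed 4.32-fold, so the share of methylated NFKBIA mRNA cannot be read from these values.

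The peaks of NFKBIB lay mostly outside its canonical transcript. Region 1 (chr19:39398346-39398940, 595 nt) was in Control 1 (p 3e-10), Control 2 (p 2e-09) and F. nucleatum 2 (p 3.2e-08), and lay on exons of 2 other transcripts of the gene, 1 of them annotated for nonsense-mediated decay, in neither case on coding bases. Region 2 (chr19:39399148-39399504, 357 nt) was in Control 2 (p 2.5e-08) and F. nucleatum 1 (p 2.9e-05), with 37.5% of its bases on the canonical transcript. NFKBIE had the strongest Control peaks of the group by p, a region of 802 nt within the 3′UTR (chr6:44226140-44226941, exon 6 of 6) with 7 GGAC motifs and p 2e-51 and 4e-46 in Control against 3.2e-55 and 1e-53 in F. nucleatum. Its peaks spanned 624 to 772 nt in the 4 lists.

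Among the nuclear IκB genes, BCL3 had a region in all 4 lists (chr19:45262094-45263183, exons 8 and 9 of 9, 504 nt, 5 GGAC motifs). Its p-values were 4.1e-07 and 0.00074 in the Control lists and 2e-13 and 4e-08 in the treated lists, and its peaks were 238 and 119 nt long in Control and 474 nt in each F. nucleatum list. The F. nucleatum peaks reached across the stop codon and the Control peaks did not. NFKBIZ, the gene with the largest ratio of mRNA, had no peak in any list. Of 3269 genes within 2-fold of its mean of 2.65 FPKM, 82.2% had one in at least 1 list, and 71.2% to 76.0% had one in a given list. That mean lies well above both Control libraries of NFKBIZ (0.647 and 0.996 FPKM). Among genes within 2-fold of REL, at a mean of 0.938 FPKM, 51.9% to 59.7% had a peak in a given list.

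The p-values of the 7 regions in all 4 lists can be put in order between the groups, a count chosen after the values were seen. In 5 of the 7 (RELB, NFKB1, NFKBIA region 2, NFKBIE and BCL3) both F. nucleatum lists had a lower p than both Control lists. In the series this held for 15.7% of 11341 regions. Both Control lists had the lower p in 0 of the 7, against 18.9% in the series. By rank within a list RELA region 2 joined the 5, giving 6 of 7 against 19.2%. The reverse order by rank held for 0 of the 7, against 19.0%. The same 6 genes had more mRNA in both F. nucleatum inputs than in both Control inputs, and the part of mRNA level in the order of the p-values was not tested.

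The genes around NF-κB were read from 4 lists in the order of the pathway, beside the 0.667% of all genes called higher, the 0.135% called lower and the median of 0.01. At these shares a list of such a size holds about 0 calls. Of the upstream kinases and their partner proteins, 11 of 12 genes were tested and 0 were called (2 at an unadjusted limma p under 0.05). Their log2 fold changes ran from -0.31 to 0.37, with a median of 0.02. The largest were those of CHUK, which encodes a catalytic subunit of IKK (0.37, limma adjusted p 0.469), and MAP3K14, the kinase of the noncanonical branch (0.34, limma adjusted p 0.169). CHUK was at 8.38 and 12.3 FPKM with PBS and at 11.8 and 15.3 FPKM with the bacterium, so its groups overlapped. MAP3K8 was below the minimum.

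Of the ubiquitylation and degradation genes of the pathway, not all of which act on IκB, all 14 in the list were tested. Of these, 0 were called (2 at an unadjusted limma p under 0.05), with a median of 0.01. The values farthest from 0 were those of RNF31, a subunit of the linear ubiquitin ligase (-0.30, limma adjusted p 0.25), and of PDLIM2, known for ending RELA activity in the nucleus (-0.25, limma adjusted p 0.361). Of 14 nuclear partners and other IκB-like proteins 0 were called as well (0 at an unadjusted limma p under 0.05), with a median of 0.05. The largest values were 0.19 for each of the coactivators CREBBP and EP300 (limma adjusted p 0.46 and 0.461) and, equal at this rounding, for the importin KPNA4 (limma adjusted p 0.377).

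Of 23 targets, 18 were tested, 11 were called higher and 0 lower, against 0.667% and 0.135% of all genes, and the median log2 fold change was 1.17 against 0.01. Called were the neutrophil chemokines CXCL8 (4.90), CXCL1 (4.30), CXCL2 (2.99) and CXCL3 (2.47) and the chemokine CCL20 (2.95). CXCL8 was at 0.396 and 0.335 FPKM with PBS and at 40.8 and 38.9 FPKM with the bacterium (limma adjusted p 4.84e-05). CCL20 was at 0.107 and 0.0 FPKM with PBS and at 7.23 and 7.08 FPKM with the bacterium. Also called were the feedback inhibitor TNFAIP3 (1.56), the ubiquitin ligase BIRC3 (1.83), the adhesion molecule ICAM1 (1.72), CD83 (1.22), TNFAIP2 (1.12) and IER3 (0.79). The calls of CD83, TNFAIP2 and IER3 were lost without either F. nucleatum library, with limma adjusted p from 0.078 to 0.141, and that of TNFAIP3 without F. nucleatum 2 (limma adjusted p 0.0907), which left 7 calls. TNFAIP3, which like NFKBIA feeds back on the pathway, was at 0.816 and 0.838 FPKM with PBS and at 3.93 and 4.89 FPKM with the bacterium. The cytokine genes TNF, IL1A and IL6 were below the minimum, with no value over 0.069 FPKM, and TRAF1 and PTGS2 were below it too. Of the 18 targets tested, 7 were below 1 FPKM in the Control mean and entered through the treated libraries, namely TNFAIP3, BIRC3, CXCL8, CXCL1, CXCL2, CXCL3 and CCL20. All 7 were among the 11 calls, and all 7 lay above the median of 1.17. The count of calls and the median thus rest largely on genes that entered by being high after treatment, and both are a description.

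**Figure D4:**
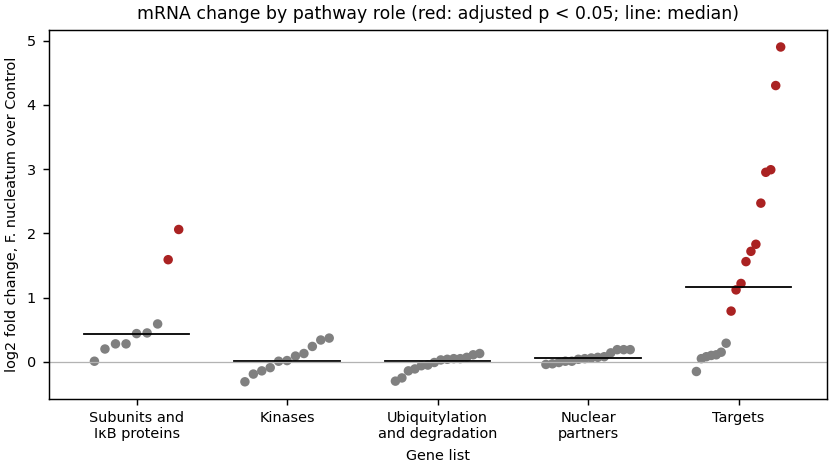
log2 fold change of mRNA, F. nucleatum over Control, on the log2(FPKM + 1) scale, for each tested gene of the NF-κB and IκB group and of 4 pathway lists (points sorted within a list; red for an adjusted p under 0.05; black lines for medians). The lists labelled for kinases, degradation genes and nuclear partners lie within -0.31 to 0.37 with no red point. Red points appear among the targets (11) and in the NF-κB and IκB group (2).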

How the data were processed

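The authors trimmed reads (Trim Galore 0.3.3 in the submitters' processing notes), aligned them to hg19 with HISAT2 2.1.0 and computed FPKM of the input libraries with StringTie. The deposited FPKM are not counts, so the count model of the methods was not used. The deposited peak lists held, for each replicate, positions and exon blocks, a gene name and 1 score, taken here for an uncorrected p-value. The methods name MACS2 with a Fisher exact test for peak calling. MACS2 does not write exon blocks and gene names, which these lists have, so the step that made them is uncertain.

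Genes that averaged 1 FPKM or more were fitted with limma 3.58.1 (R 4.3.3; lmFit, eBayes with trend) on log2(FPKM + 1), which understates changes of low genes. A gene was called when its p, adjusted by Benjamini-Hochberg, was under 0.05 over all 11088 genes, and this limma fit gave every adjusted p. The code of the fit was tested on data simulated under its own assumptions, and that of the joining of peaks on a small made set. These tests cannot show that the assumptions hold for these libraries. Peaks were placed on canonical GENCODE transcripts mapped to GRCh37. The 2 replicate numbers are not stated to mark a shared batch and were not used as a block. Genes, lists and tests were chosen with earlier results of these data known. All 10 genes are named, with every called pathway gene and the 2 largest changes of each pathway list. Alternatives varied the pseudocount, filter, scaling, GC correction, peak joining and peak p, and left out libraries.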

Additional observations from a re-analysis of the deposited data

How the results depend on the processing

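Leaving out 1 input library at a time gave 1 to 3 called genes among the 10 and 7 to 11 among the pathway lists, against 2 and 11. The count was 1 without either F. nucleatum library, when NFKBIZ was lost, and 3 without Control 1, when NFKB2 was gained. Without F. nucleatum 2, 7 targets were called. CD83, IER3 and TNFAIP2 were lost without either F. nucleatum library, and TNFAIP3 without F. nucleatum 2. The lone library was assumed to vary like the other group. NFKBIB changed sign with median centring (-0.00068) and ranged from -0.02 to 0.04 over the libraries left out, below 0 without Control 2 and without F. nucleatum 1. All calls of the transcriptome were 89, 40 without a filter on low values and 16 to 284 with a library left out. With the replicate number as a block there were 90 calls in all and 2 among the 10 genes. The deviations of libraries with the same number correlated at 0.0243 over the genes. This value cannot show whether libraries with the same number were prepared together. The block changed no call of a named gene. With peaks at p of at most 1e-05, the mean difference in peaks (F. nucleatum less Control) was 1.5 instead of 0.0. Of 9 regions, 4 lay in all lists, 0 in both Control lists alone and 1 in both F. nucleatum lists alone. In the series these were 8299, 349 and 303 of 13480 regions. Leaving out 1 list gave a difference of -1.0 to 1.0 and 7 to 8 regions in all lists, with 8 without F. nucleatum 1. In the series 11842 to 12230 of 20918 to 21295 regions lay in all lists. Of the 10 genes, 1 to 2 regions lay in Control alone and 0 to 2 in F. nucleatum alone, both highest without F. nucleatum 2. There F. nucleatum alone meant 1 list. In the series 945 of 21295 regions then lay in Control alone and 2403 in F. nucleatum alone. With another list left out the series had 1449 to 2403 regions in Control alone and 917 to 1727 in F. nucleatum alone. Matching peaks by position changed no count of peaks or regions of the 10 genes. The order of p-values by rank was added after the data had been seen. Unknown depth limits what can be said of genes near 1 FPKM and of peaks that were not called.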
